A study of Mus musculus with 11 samples.

Results

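The clustered histone genes are the compact genes, packed into a few genomic clusters, from which dividing cells make the bulk of their histone protein. They were taken here as the protein-coding genes whose symbol begins with Hist1h, Hist2h, Hist3h or Hist4h in the GENCODE M21 annotation (GRCm38), which gave 67 genes of the 52282 with a transcript in the tables. By class the 67 comprised 6 linker histone H1 genes, 18 H2A, 18 H2B, 12 H3 and 13 H4 genes. The members lie in 4 clusters: Hist1 (chr13:21715763-23934851) with 54 members, Hist2 (chr3:96219865-96270132) with 10, Hist3 (chr11:58948920-58956830) with 2 and Hist4 (chr6:136801553-136804415) with 1. RNA-seq was run on whole inguinal fat, a subcutaneous white adipose depot, of C57BL6/J mice aged 16 weeks. All mice carried floxed alleles of Raptor (gene symbol Rptor), a scaffold subunit of the kinase complex mTORC1, and all had been on a high-fat diet for 8 weeks from 8 weeks of age. The knockout (KO) mice also carried Cre recombinase under the adiponectin promoter, which is active in adipocytes, so other cells of the tissue keep the gene; the controls (WT) were floxed littermates without Cre. Within each genotype the diet either held rosiglitazone, an agonist of the adipocyte nuclear receptor PPARγ, at 30 mg/kg/day, or did not. That gave 3 libraries for WT on diet, 3 for WT with rosiglitazone, 2 for KO on diet and 3 for KO with rosiglitazone. The labels do not say whether each library is a separate animal, so p-values measure only the spread between these libraries.

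DNA is wrapped around octamers of the core histones H2A, H2B, H3 and H4, and H1 binds the linker between them. Most clustered histone genes are switched on as a cell enters S phase, when new DNA needs packing, and their mRNAs end in a conserved stem-loop bound by the protein SLBP rather than in a poly(A) tail. Mature adipocytes do not divide, so in fat these mRNAs are known mainly from proliferating progenitors, vascular cells and immune cells, including those of the lymph node that lies inside the inguinal depot; some members also give polyadenylated transcripts in cells that have stopped dividing.

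The stem-loop is the feature that most members share, and its letters are shown because they set these mRNAs apart from nearly all others. The letters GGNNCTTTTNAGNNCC, read on the transcript strand only, were present in the leading annotated transcript (the one with the most reads) of 43 of the 67 members and in 0.0875% of all annotated transcripts (124 of 141767). Forms found in the members follow, written 5′ to 3′ as DNA, with the 4 loop bases in capitals between 6 stem pairs.
Form of 25 members of H1, H2A, H2B and H3: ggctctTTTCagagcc
Form of 7 members of H4: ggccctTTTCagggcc
Form of 6 members of H1, H2B and H3: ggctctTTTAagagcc
Form of 2 members of H4 (Hist1h4i and Hist2h4): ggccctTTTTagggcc
Form of 2 other members of H4 (Hist1h4b and Hist1h4j): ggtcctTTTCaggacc
Form of 1 member of H2A (Hist2h2ac): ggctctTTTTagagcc
The H4 forms differed from the others in the stem, while 2 of the 3 loops occurred in both. The other 24 members held no such letters in that transcript, which says only that the letters are not in that model. For Hist1h2be, 1 of the 24, the leading transcript is a non-coding model, and both protein-coding models hold the form of the 25 members.

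Promoters of the members also share short elements, and the 150 bases before the RefSeq start (GRCm38.p6) are shown for 1 gene of each class that was higher in KO than in WT with rosiglitazone, and for Hist2h2aa2, the member with the highest mean TPM, which was not. TPM, a relative transcript abundance, divides by transcript length, so it is the scale on which levels of different genes can be compared. Each stretch is written 5′ to 3′ along the gene. Capitals mark TATAAA (the TATA box), CCAAT (the CCAAT box), ATTTGCAT (the octamer bound by POU factors) and AAACACA (an element described in H1 promoters), searched on both strands, and no marked matches overlapped.
Hist1h1b (chr13:21780626-21780775, minus strand): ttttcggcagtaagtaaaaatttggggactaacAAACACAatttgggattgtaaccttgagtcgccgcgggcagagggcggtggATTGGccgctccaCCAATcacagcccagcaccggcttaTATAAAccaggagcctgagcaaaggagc
Hist1h2ab (chr13:23750938-23751087, plus strand): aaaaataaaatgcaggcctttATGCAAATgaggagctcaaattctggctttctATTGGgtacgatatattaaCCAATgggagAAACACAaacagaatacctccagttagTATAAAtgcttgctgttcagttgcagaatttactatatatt
Hist1h2bm (chr13:21721894-21722043, plus strand): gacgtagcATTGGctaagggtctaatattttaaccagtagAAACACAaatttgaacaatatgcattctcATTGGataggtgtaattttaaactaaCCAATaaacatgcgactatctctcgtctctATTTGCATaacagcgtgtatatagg
Hist1h3h (chr13:21717478-21717627, plus strand): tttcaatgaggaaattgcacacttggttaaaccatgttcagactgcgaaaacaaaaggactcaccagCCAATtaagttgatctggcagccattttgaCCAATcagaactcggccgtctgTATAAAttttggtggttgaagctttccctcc
Hist1h4f (chr13:23551669-23551818, minus strand): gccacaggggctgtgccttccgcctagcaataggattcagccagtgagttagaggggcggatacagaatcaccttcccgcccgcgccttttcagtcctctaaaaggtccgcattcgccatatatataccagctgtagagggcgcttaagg
Hist2h2aa2 (chr3:96240375-96240524, minus strand): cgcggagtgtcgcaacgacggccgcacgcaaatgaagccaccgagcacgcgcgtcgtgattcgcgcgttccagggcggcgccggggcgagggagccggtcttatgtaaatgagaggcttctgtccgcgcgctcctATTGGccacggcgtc
In these stretches Hist1h1b held 3 of the motifs, all but the octamer, and Hist1h2ab held all 4. By contrast, Hist1h4f held none of them and Hist2h2aa2 held only a CCAAT match. The RefSeq start of Hist2h2aa2 lies 98 bases before its GENCODE start, so the bases between are not in its stretch. In the other genes shown the distance was 0 to 38 bases. Of the 61 members with an entry in the RefSeq promoter table (250 bases before to 50 after the start), 85.2% held CCAAT, against 37.4% of all 32851 promoters in that table. Every H1, H2A, H2B and H3 promoter matched had it, but only 3 of 12 H4 promoters did. TATAAA was present in 55.7% of the members and 13.6% of all promoters. The octamer letters ATTTGCAT stood in 38.9% of H2A and 37.5% of H2B promoters, in 0 of the H1, H3 and H4 promoters, and in 1.74% of all promoters. AAACACA was found in 4 of 5 H1 promoters and 7.18% of all promoters. A match is a description of letters, not of a factor at work in this tissue.

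Library totals ran from 13020833 to 40885485 reads, of which the histone genes together held 4962 to 14391. In WT, titles and treatment characteristics contradict each other on which libraries had the drug; groups follow the characteristics, and every WT statement depends on that choice. Rptor itself was at 92.0, 80.1 and 73.9 CPM (counts scaled to library size) in WT on diet, 119, 126 and 110 in WT with rosiglitazone, 56.5 and 69.6 in KO on diet, and 88.3, 82.4 and 91.7 in KO with rosiglitazone. It was lower in KO but not called (log2 difference -0.38 ± 0.17 on diet and -0.44 ± 0.15 with rosiglitazone, edgeR adjusted p = 0.467 and 0.0749). The KO libraries with rosiglitazone overlapped WT on diet. Other cells of the tissue keep the gene, and their part in these levels was not tested. Ribosomal and signal recognition particle RNAs took 10.6% to 15.3% of reads in WT, 11.8% and 19.8% in KO on diet, and 31.3%, 19.4% and 19.6% in KO with rosiglitazone. Adipocyte markers were expressed in all libraries.

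In CPM, histone mRNA as a whole stood highest in the KO tissue with rosiglitazone. Summed over all members, WT libraries on diet stood at 498, 417 and 497 CPM, with a mean of 471 ± 46.3 (SD, n = 3). WT libraries given the drug reached 410, 448 and 463 CPM (440 ± 27.0, SD, n = 3). The pair of KO libraries on diet was at 244 and 421 CPM (333 ± 125, SD, n = 2), and the KO libraries given rosiglitazone at 751, 745 and 764 CPM (753 ± 9.58, SD, n = 3). On this scale the last 3 lay above the other 8, and the KO pair on diet was farther apart than the libraries of any other group. In TPM the groups overlapped, with means of 1140 ± 474 (SD) in KO with rosiglitazone and 1080 ± 138 (SD) in WT on diet. In bulk tissue a larger number of cells that make histone mRNA and more of it per cell cannot be told apart.

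By class, the sums called for KO against WT with rosiglitazone were those of H3 and H4. The median log2 difference of the members tested was 1.11 for H1, 1.47 for H2A, 1.24 for H2B, 1.68 for H3 and 1.61 for H4. The H3 sum was 56.0, 56.7 and 60.8 CPM in WT with rosiglitazone and 138, 165 and 166 CPM in KO with rosiglitazone. This was a 2.71-fold difference (log2 1.44 ± 0.31, SE, edgeR adjusted p = 0.0142). The H4 sum was 75.4, 70.6 and 85.6 CPM in WT against 227, 163 and 178 CPM in KO, 2.46-fold higher (log2 1.30 ± 0.27, edgeR adjusted p = 0.0129). H3 and H4 form the tetramer at the core of the nucleosome, and the groups did not overlap in either sum. The H1 sum (82.6, 96.7 and 95.4 CPM in WT, 164, 129 and 124 CPM in KO) had no overlap either but was not called (log2 0.60 ± 0.18, edgeR adjusted p = 0.0514). H2A (112, 121 and 124 CPM in WT, 149, 146 and 161 CPM in KO, log2 0.35 ± 0.19, edgeR adjusted p = 0.239) and H2B (84.1, 102 and 96.6 CPM in WT, 73.2, 141 and 135 CPM in KO, log2 0.31 ± 0.26, edgeR adjusted p = 0.453) differed by less, and H2B overlapped. Of the 26901 features in that fit 5.36% were called higher. Neither class sum call was kept with the WT libraries grouped by titles (H3 0.96, adjusted p = 0.14, and H4 1.04, adjusted p = 0.0774). The H3 call was lost without WT with rosiglitazone replicate 1 (adjusted p = 0.0536), without its replicate 2 (adjusted p = 0.0623) or without KO with rosiglitazone replicate 3 (adjusted p = 0.0546). The H4 call was lost without WT with rosiglitazone replicate 2 (adjusted p = 0.0622) or without KO with rosiglitazone replicate 1 (adjusted p = 0.0552).

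**Figure D1:**
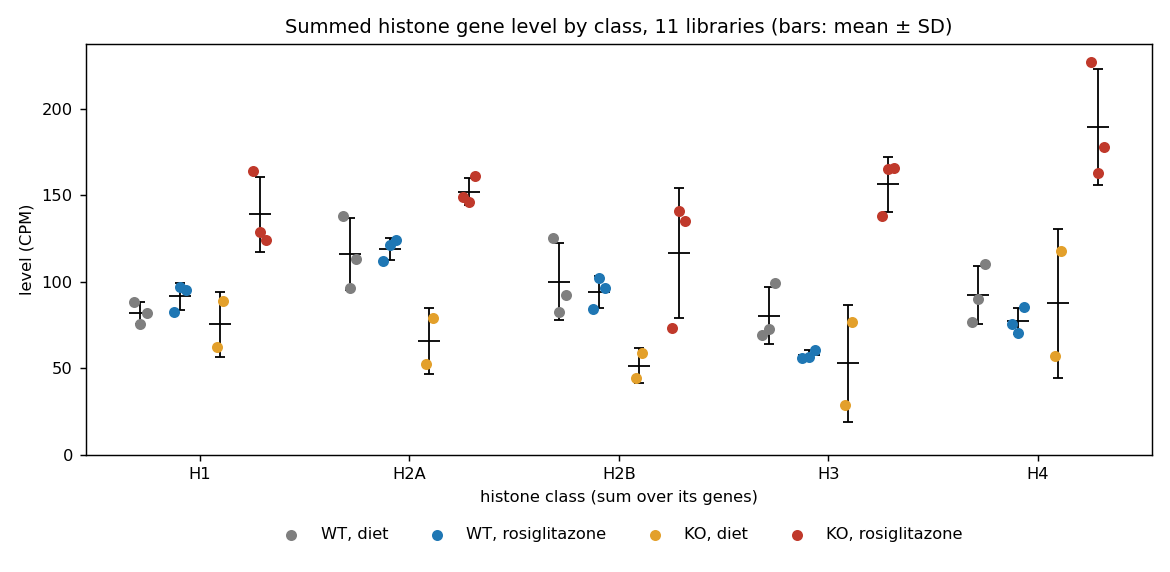
Summed CPM of each histone class; each point is 1 library, coloured by group, and black bars are the group mean ± SD. The KO libraries with rosiglitazone lie highest for H1 (124 to 164 CPM), H2A (146 to 161 CPM), H3 (138 to 166 CPM) and H4 (163 to 227 CPM). For H2B 1 of them (73.2 CPM) lies among the other groups.

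The comparison of KO with WT under rosiglitazone asks what loss of Raptor in adipocytes does to the tissue when PPARγ is activated. It held nearly all of the member calls. Of the 67 members 64 passed the filter on low counts; the germ-line genes Hist1h2aa and Hist1h2ba had 0 reads, and Hist1h1t, the testis linker histone, had 29 reads in all 11 libraries. In this comparison 32 of the 64 rose at an adjusted p under 0.05 and 1 fell, where 15.0% of the 26960 genes tested were called, 5.47% higher and 9.5% lower. The median log2 difference was 1.45 over the members and 0.05 over all genes tested. In 42 members every KO library lay above every WT library, as in 23.5% of all genes, and in 5 members every KO library lay below, as in 24.7% of all genes. The calls were 3 of 5 H1, 7 of 17 H2A, 5 of 17 H2B, 7 of 12 H3 and 10 of 13 H4 genes higher, and 1 H2A gene lower. With the WT libraries grouped by titles, 2 members were called higher (Hist1h1c and Hist1h2af) and 0 lower, against 2.31% of all genes, with a median of 0.90. The count fell to 16, 14 and 18 without WT with rosiglitazone replicate 1, 2 or 3, and to 20 and 16 without KO with rosiglitazone replicate 1 or 3. DESeq2 called 39 members higher and 3 lower, where it called 9.32% of all genes higher and 13.7% lower. The 7 higher members that edgeR did not call were Hist1h1c, Hist1h2ah, Hist1h2bk, Hist1h3c, Hist1h3g, Hist1h4c and Hist4h4, and the 3 lower members were Hist2h2aa1, Hist1h2be and Hist2h3c1. Of the 33 edgeR calls, 10 held in every fit that left out 1 library: Hist1h1a, Hist1h1b, Hist1h2ab, Hist1h2af, Hist1h2ak, Hist1h2ap, Hist1h2bm, Hist1h3h, Hist1h4f and Hist2h2ac.

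**Figure D2:**
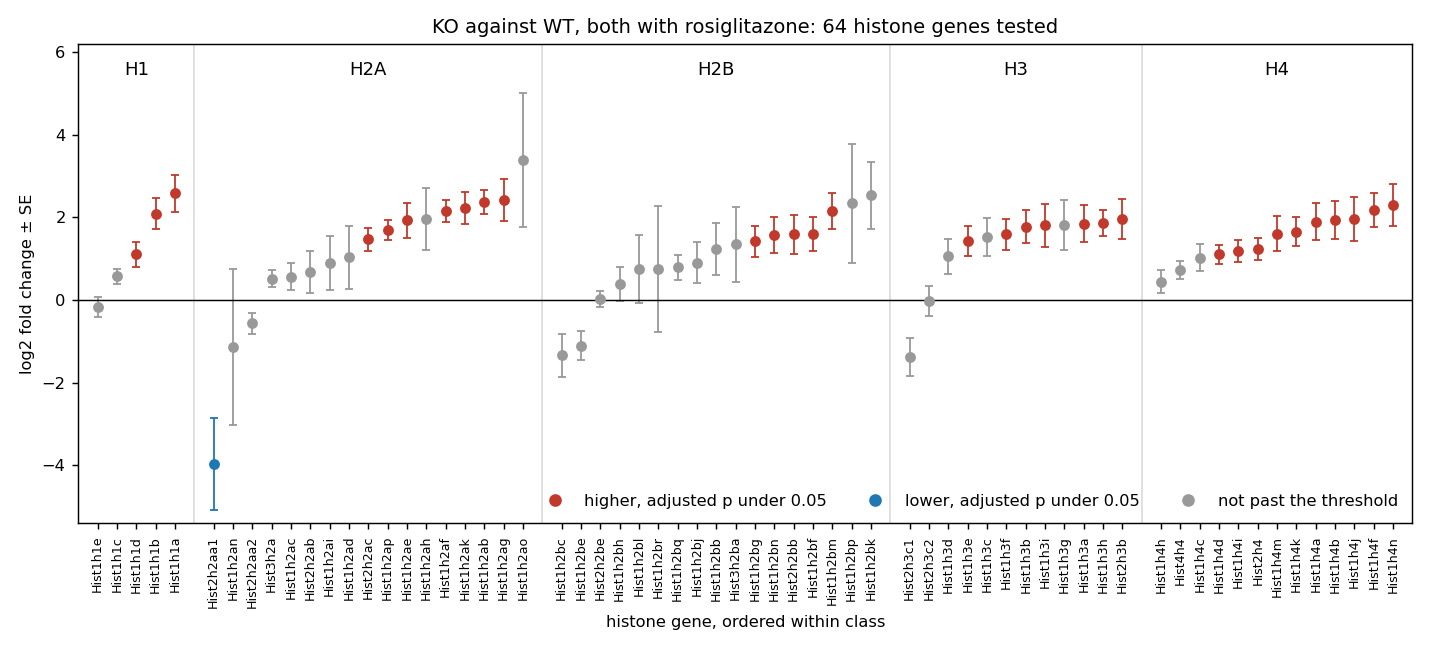
Log2 fold change with its standard error for KO against WT with rosiglitazone, for each of the 64 members tested, ordered within class; red and blue points passed the test and grey ones did not. Most members lie above 0, and Hist2h2aa1, Hist1h2bc, Hist1h2be, Hist2h3c1 and Hist1h2an lie below -1.

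The linker histones divided into genes that rose and genes that did not. Hist1h1a, an S-phase H1, was at 1.82, 3.05 and 3.39 CPM in WT on diet, 1.6, 1.09 and 0.507 in WT with rosiglitazone, 1.43 and 3.75 in KO on diet, and 7.11, 6.17 and 6.53 in KO with rosiglitazone. Under rosiglitazone the KO libraries were all above the WT libraries, 6.04-fold in the fit (log2 2.59 ± 0.45, edgeR adjusted p = 0.00662). Hist1h1b, another H1 of dividing cells, went from 2.81, 1.62 and 2.28 CPM in WT to 9.91, 8.58 and 10.1 CPM in KO with rosiglitazone (log2 2.09 ± 0.38, adjusted p = 0.00729). Hist1h1d was at 9.98, 9.43 and 10.8 CPM in WT and 24.0, 20.2 and 20.9 CPM in KO (log2 1.11 ± 0.30, adjusted p = 0.0341). The remaining pair are widely expressed somatic linker histones. Hist1h1c, which held 53.5% of all H1 reads, was at 46.3, 54.7 and 54.7 CPM in WT and 98.9, 71.9 and 61.8 CPM in KO, without overlap but not called (log2 0.58 ± 0.18, adjusted p = 0.0573). Hist1h1e was at 21.8, 29.9 and 26.9 CPM in WT and 24.1, 22.2 and 24.0 CPM in KO, and the groups overlapped (log2 -0.16 ± 0.24, adjusted p = 0.683). Its share of H1 reads was 28.8% in WT and 16.9% in KO with rosiglitazone.

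Of the 12 Hist1 H2A genes tested 6 rose, while Hist1h2ac, Hist1h2ad, Hist1h2ah, Hist1h2ai, Hist1h2an and Hist1h2ao did not pass (edgeR adjusted p of 0.105 to 0.718), nor did the H2A gene with the most reads. Hist1h2ab was at 3.34, 3.19 and 4.22 CPM in WT on diet, 1.99, 1.74 and 1.01 in WT with rosiglitazone, 2.51 and 4.27 in KO on diet, and 8.17, 8.06 and 8.84 in KO with rosiglitazone. It had the smallest adjusted p of the members in this comparison (log2 2.38 ± 0.29, edgeR adjusted p = 0.00151). Hist1h2af (2.06, 1.71 and 2.47 CPM in WT, 8.04, 11.5 and 8.15 CPM in KO) was 4.45-fold higher (log2 2.15 ± 0.27, adjusted p = 0.00162). All of these genes encode core H2A, and the next 2 did the same. Hist1h2ak was at 4.69, 2.27 and 3.3 CPM in WT and 15.0, 15.8 and 17.4 CPM in KO (log2 2.23 ± 0.39, adjusted p = 0.00657). Hist2h2ac, in the Hist2 cluster, was at 5.26, 4.76 and 5.01 CPM in WT and 15.2, 11.9 and 14.5 CPM in KO (log2 1.47 ± 0.28, adjusted p = 0.00886). Hist1h2ae (log2 1.93 ± 0.43), Hist1h2ag (log2 2.42 ± 0.51) and Hist1h2ap (log2 1.70 ± 0.24) also rose.

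Hist2h2aa2 held 51.4% of all H2A reads and had the highest mean level of any member, 137 TPM. Its level was 90.1, 42.1 and 48.3 CPM in WT on diet, 70.3, 87.5 and 79.5 in WT with rosiglitazone, 22.9 and 28.6 in KO on diet, and 54.4, 53.6 and 52.6 in KO with rosiglitazone. Every KO library lay below every WT library of the same treatment, yet neither contrast was called (log2 -1.22 ± 0.30, adjusted p = 0.177, without the drug, and -0.56 ± 0.26, adjusted p = 0.167, with it). Its neighbour Hist2h2aa1, which encodes the same protein, was the only member edgeR called lower under rosiglitazone: 6.18, 3.27 and 7.42 CPM in WT and 0, 1.13 and 0 CPM in KO (log2 -3.97 ± 1.11, edgeR adjusted p = 0.0459). Without KO with rosiglitazone replicate 2, the library at 1.13 CPM, the value for Hist2h2aa1 was -9.88, and the call was lost without any 1 of the 3 WT libraries with rosiglitazone or without KO with rosiglitazone replicate 1 or 3 (adjusted p of 0.085 to 0.112), and also without WT on diet replicate 2 or 3 (0.0627 and 0.0657). Few reads of either gene can be assigned to it alone. Of the 31-base windows, 0.0% of those of Hist2h2aa2 and 10.3% of those of Hist2h2aa1 occur in no other annotated gene. Windows shared between the pair in particular were not counted. Summed, the pair stood at 76.5, 90.7 and 86.9 CPM in WT and 54.4, 54.7 and 52.6 CPM in KO with rosiglitazone (log2 -0.65 ± 0.23, adjusted p = 0.0864, a sum chosen after the values were seen). From WT to KO with rosiglitazone the share of H2A reads held by Hist2h2aa2 went from 67.0% to 35.1%.

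Hist1h2ap, another H2A gene, had the most extreme values of all members and likewise has few windows of its own. It had 0 reads in both KO libraries on diet, against 4.77, 4.52 and 5.68 CPM in WT on diet, 2.24, 2.96 and 2.6 in WT with rosiglitazone, and 6.61, 7.83 and 11 in KO with rosiglitazone. As counts per group these were 0 reads in KO on diet, 387 after rosiglitazone in KO and 311 in WT on diet. With the group at 0 set to a floor of 3 reads and depth taken into account, this is at least 129-fold and at least 75.1-fold more. It was called in 4 contrasts, and was the only member called for rosiglitazone in KO (edgeR adjusted p = 0.000612) and for KO against WT on diet (edgeR adjusted p = 0.00134). Only 6.6% of its 31-base windows are its own. Hist1h2ao (6.2%) and Hist1h2an (11%), called its copies here, encode the same protein, as do others in a group of 9 genes. Windows shared among these 3 in particular were not counted. Hist1h2ao was at 0.39, 0 and 0 CPM in WT on diet and at 1.92 and 3.16 CPM in KO on diet, where Hist1h2ap was 0. Added up, the 3 copies were at 5.77, 4.71 and 6.31 CPM in WT on diet, 2.77, 3.02 and 4.76 in WT with rosiglitazone, 1.92 and 4.07 in KO on diet, and 8.6, 13 and 11 in KO with rosiglitazone. The sum was not at 0 in any library, and the KO libraries with rosiglitazone lay above all others. In a fit of the sums, added after the values were seen, rosiglitazone in KO gave 1.85 ± 0.37 (log2, edgeR adjusted p = 0.176), KO against WT on diet -0.89 ± 0.36 (adjusted p = 0.414), and KO against WT with rosiglitazone 1.64 ± 0.32 (adjusted p = 0.00984). Of the calls of Hist1h2ap, the sum thus kept that of KO against WT with rosiglitazone.

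**Figure D3:**
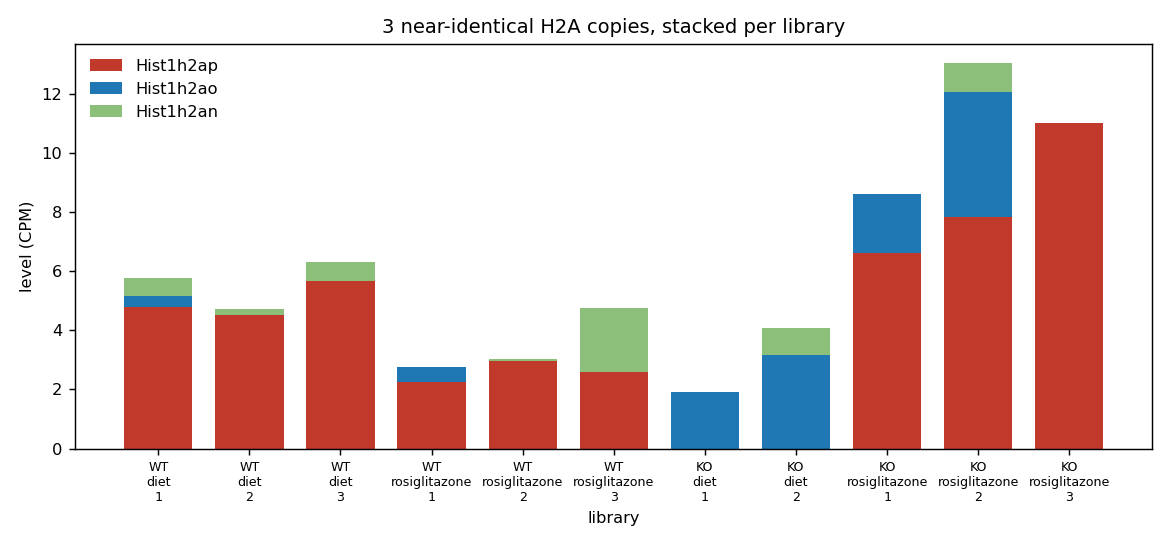
CPM of Hist1h2an, Hist1h2ao and Hist1h2ap in each of the 11 libraries, stacked so that the height of a bar is the sum of the copies. Hist1h2ap is at 0 in both KO libraries on diet, where Hist1h2ao is at 1.92 and 3.16 CPM and the sums are 1.92 and 4.07 CPM.

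H2B genes were divided. Hist1h2bm, an S-phase H2B gene, was at 1.78, 2.36 and 3.7 CPM in WT on diet, 0.64, 1.06 and 1.08 in WT with rosiglitazone, 1.13 and 1.24 in KO on diet, and 1.99, 5.72 and 4.73 in KO with rosiglitazone. The KO group lay above the WT group under rosiglitazone, with its replicate 1 well below the other 2 (log2 2.16 ± 0.43, edgeR adjusted p = 0.0111). Hist1h2bn (4.55, 3.2 and 2.79 CPM in WT, 3.86, 11.9 and 15.6 CPM in KO) was called although the groups overlapped (log2 1.57 ± 0.43, adjusted p = 0.0368). Hist1h2bf (log2 1.61 ± 0.41), Hist1h2bg (log2 1.42 ± 0.38) and Hist2h2bb (log2 1.59 ± 0.48) also rose. These all encode core H2B; the genes that held the most H2B reads in WT with rosiglitazone were others. Hist1h2bc, with 28.9% of those reads, was at 26.3, 27.4 and 28.7 CPM in WT and 8.98, 13.1 and 10.6 CPM in KO (log2 -1.33 ± 0.52, adjusted p = 0.113). Hist1h2be, with 21.2%, was at 17.2, 23.9 and 17.2 CPM in WT and 6.79, 11.9 and 8.46 CPM in KO (log2 -1.10 ± 0.36, adjusted p = 0.0677). Neither passed the edgeR test, while DESeq2 called Hist1h2be lower (adjusted p = 0.0282), and in both every KO library lay below every WT library. Hist1h2bq, which shares all its windows with other transcripts and had a mean of 71.4 TPM, was at 14.1, 18.3 and 17.6 CPM in WT and 14.8, 36.5 and 34.8 CPM in KO (log2 0.79 ± 0.30, adjusted p = 0.109). Each H2B gene named so far except Hist2h2bb had its lowest KO value with rosiglitazone in replicate 1, whose H2B sum was 73.2 CPM against 141 and 135 CPM in the others. Hist2h2be, an H2B gene of the Hist2 cluster, was level at 5.54, 5.79 and 6.09 CPM in WT and 7.23, 4.97 and 5.6 CPM in KO (log2 0.03 ± 0.20, adjusted p = 0.929).

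H3 genes encode the histone that carries many of the best-known regulatory marks, and 7 of 12 rose. Hist1h3h was at 8.94, 12.9 and 15.1 CPM in WT on diet, 7.75, 7.96 and 10.3 in WT with rosiglitazone, 3.99 and 9.23 in KO on diet, and 25.4, 34.4 and 35.5 in KO with rosiglitazone. Its KO libraries with rosiglitazone lay above all 8 others (log2 1.87 ± 0.32 against WT, edgeR adjusted p = 0.00571). Hist2h3b was at 9.13, 7.09 and 7.86 CPM in WT and 28.7, 32.9 and 32.4 CPM in KO with rosiglitazone (log2 1.96 ± 0.48, adjusted p = 0.0244). Its KO libraries on diet were far apart, at 3.84 and 18.5 CPM. Hist1h3a (log2 1.85), Hist1h3b (1.78), Hist1h3e (1.43), Hist1h3f (1.59) and Hist1h3i (1.81) made up the rest of the calls. Hist1h3c (1.52, adjusted p = 0.0509), Hist1h3d (1.06, adjusted p = 0.122) and Hist1h3g (1.82, adjusted p = 0.0692) did not pass. A pair in the Hist2 cluster with the same protein had values below or near 0 and was not called by edgeR. Hist2h3c1 was at 3.87, 12.7 and 8.82 CPM in WT and 3.43, 3.24 and 3.05 CPM in KO (log2 -1.38 ± 0.46, adjusted p = 0.0727), and Hist2h3c2 at 3.87, 5.6 and 5.9 CPM in WT and 2.62, 5.8 and 6.66 CPM in KO (log2 -0.03 ± 0.36).

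H4 was the most uniform class, with 10 of 13 genes called. All 13 genes encode 1 and the same protein of 103 residues, so the class sum is also the sum for the protein. Hist1h4f was at 3.56, 5.55 and 8.29 CPM in WT on diet, 2.77, 2.27 and 3.36 in WT with rosiglitazone, 2.12 and 6.27 in KO on diet, and 12.4, 11.7 and 13.9 in KO with rosiglitazone (log2 2.18 ± 0.41, edgeR adjusted p = 0.00853). Hist1h4k, with a mean of 62.1 TPM the highest H4 gene per length, was at 7.14, 8.62 and 6.85 CPM in WT and 30.9, 20.6 and 20.1 CPM in KO with rosiglitazone (log2 1.66 ± 0.36, adjusted p = 0.0143). Both groups stood apart in each gene. Hist1h4m was at 8.53, 7.9 and 13.9 CPM in WT and 32.9, 23.6 and 35.7 CPM in KO (log2 1.61 ± 0.43, adjusted p = 0.0343), and Hist2h4 at 7.18, 7.62 and 9.45 CPM in WT and 26.4, 14.5 and 16.2 CPM in KO (log2 1.24 ± 0.27, adjusted p = 0.0155). Hist1h4a, Hist1h4b, Hist1h4d, Hist1h4i, Hist1h4j and Hist1h4n rose as well, by 1.11 to 2.30 on the log2 scale. Hist1h4c (1.03, adjusted p = 0.0551), Hist4h4 (0.72, adjusted p = 0.0535) and Hist1h4h (0.45, adjusted p = 0.304) did not pass by edgeR. In contrast to H2B, the H4 sum of KO with rosiglitazone replicate 1 was the highest of its group, at 227 CPM.

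Because many members encode identical proteins, the counts were also summed by protein. This gave 27 groups, of which 12 rose and 0 fell for KO against WT with rosiglitazone, where 14.8% of all features were called. The H2A protein shared by 9 genes, Hist1h2ab and Hist1h2ap among them, rose by 1.69 ± 0.24 (log2, edgeR adjusted p = 0.00298). The H3 protein of 4 genes, including Hist1h3h, rose by 1.85 ± 0.38 (adjusted p = 0.0116), and that of 8 genes, including Hist2h3b and the Hist2h3c pair, by 1.22 ± 0.29 (adjusted p = 0.0205). Not every protein rose. The H2B protein of Hist1h2bf, Hist1h2bj, Hist1h2bl, Hist1h2bn and Hist1h2bq gave 0.98 ± 0.33 (adjusted p = 0.0731), and that of Hist1h2bc, Hist1h2be and Hist1h2bg gave -0.72 ± 0.37 (adjusted p = 0.209). By cluster, 28 of 51 tested members of Hist1 rose (median log2 difference 1.61), and of 10 in Hist2 4 rose and 1 fell (median 0.36). By edgeR neither of the Hist3 genes nor the Hist4 gene passed the test, and DESeq2 called Hist4h4.

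Members were further set apart by where the annotated transcript ends relative to the stem-loop letters, since models that run on describe longer RNAs. The 22 members whose model ends within 100 bases of the letters had a median log2 difference of 1.74 for KO against WT with rosiglitazone, with 12 higher and 1 lower. Of the 20 tested whose model runs on, among them Hist1h1c, Hist1h1e, Hist2h3c1 and Hist3h2a, 9 were higher, with a median of 1.08. The 22 tested without the letters had a median of 1.63 with 11 higher, and include Hist1h2bc and Hist2h2be, whose models of 1156 and 2620 bases are far longer than the 473 bases of Hist1h2ab. They also include Hist1h2be by its non-coding leading model, although its protein-coding models hold the letters and run on for 1861 bases. Differences between these sets were not tested.

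TPM is relative to all RNA of a library, short RNAs included, and on that deposited scale the groups overlapped. The summed TPM of the members was 929, 1130 and 1190 in WT on diet, 928, 746 and 737 in WT with rosiglitazone, 569 and 1020 in KO on diet, and 663, 1140 and 1610 in KO with rosiglitazone. KO with rosiglitazone replicate 1, the library with 31.3% ribosomal and signal recognition particle RNA, was then below the WT group. The class sums of this library in TPM were 48.9 for H1, 161 for H2A, 68.8 for H2B, 143 for H3 and 242 for H4. Only the H4 sum there stood above every WT library with rosiglitazone (157 to 209 TPM). TPM moved all genes, with a median log2 ratio of group means of -0.44 over all genes tested and 0.93 over the members for KO against WT with rosiglitazone. In TPM, 18 of 64 members had no overlap and were higher in KO, against 3.91% of all genes tested, and 7 were lower without overlap, as were 8333 of all 26960 genes. For rosiglitazone in KO the medians on this scale were 0.52 over the members and -0.80 over all genes.

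Rosiglitazone in KO tissue asks what the drug does when adipocytes lack Raptor. Here 1 member was called, Hist1h2ap, whose copies were described above, where 0.0148% of all genes (4 of 26960) were called. Signs were mostly in 1 direction: 59 of 64 members had a higher fitted level with the drug, the median was 1.34 against -0.01 over all genes, and 44 members had an unadjusted p under 0.05 in that direction against 4.09% of all genes. DESeq2 called 22 members higher, among them Hist1h2ab, Hist1h3h and Hist1h4f, where it called 1.01% of all genes higher. In 47 members both KO libraries on diet lay below all 3 with rosiglitazone, as in 10.5% of all genes. All 5 class sums in CPM were without overlap and higher with the drug. In TPM 5 members lay higher without overlap, as in 0.671% of all genes tested, 2 lay lower, and all 5 class sums overlapped; for H3 they were 72.1 and 205 TPM on diet and 143, 271 and 375 TPM with the drug. H3 went from 28.9 and 76.6 to 138, 165 and 166 CPM (log2 1.57 ± 0.36, edgeR adjusted p = 0.255), and H4 from 57.0 and 118 to 227, 163 and 178 CPM (1.12 ± 0.31, adjusted p = 0.344). H2A went from 52.2 and 79.1 to 149, 146 and 161 CPM (1.21 ± 0.22, adjusted p = 0.159), H2B from 44.2 and 58.7 to 73.2, 141 and 135 CPM (1.18 ± 0.31, adjusted p = 0.319), and H1 from 62.0 and 88.7 to 164, 129 and 124 CPM (0.88 ± 0.21, adjusted p = 0.268). None of the sums passed by edgeR, with 2 libraries on diet, and DESeq2 called all 5. Leaving out either KO on diet library leaves that group with 1 library. Over the fits that left out 1 library, the log2 difference was 0.94 to 1.54 for H2A, 1.03 to 2.44 for H3 and 0.69 to 1.73 for H4. The upper ends came without KO on diet replicate 2, which had the higher histone level of the pair.

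KO against WT on diet, the effect of losing Raptor without the drug, gave 1 call, Hist1h2ap lower, where 0.137% of all genes were called. As said, the sum of its copies did not pass. The median over the members was -0.38 against 0.02 over all genes, 15 members had an unadjusted p under 0.05 and a lower level against 5.92% of all genes, and in 19 both KO libraries lay below all WT libraries, as in 10.3% of all genes. DESeq2 called 5 members lower (Hist1h2ap, Hist1h2be, Hist2h2aa1, Hist2h2aa2 and Hist2h3c2), where it called 2.08% of all genes lower. Class sums were 138, 96.6 and 113 CPM in WT and 52.2 and 79.1 CPM in KO for H2A (log2 -0.82 ± 0.22, edgeR adjusted p = 0.205). For H2B they were 125, 82.5 and 92.5 CPM in WT and 44.2 and 58.7 CPM in KO (log2 -0.96 ± 0.30, adjusted p = 0.289). These 2 sums were lower without overlap, whereas H1 (-0.12), H3 (-0.61) and H4 (-0.08) overlapped. With the WT libraries grouped by titles 5 members were called lower, Hist1h2ap, Hist1h2be, Hist2h2aa1, Hist2h2aa2 and Hist2h3c2, against 10.7% of all genes called, and the H2A sum was called (-0.86, adjusted p = 0.0367).

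Rosiglitazone in WT tissue gave 0 calls among the members by edgeR, where 2.14% of all genes were called. DESeq2 called 4 lower (Hist1h2ab, Hist1h2af, Hist1h2ap and Hist1h2bm), where it called 3.28% of all genes lower. At an unadjusted p under 0.05, 1 member was higher and 11 were lower, where 9.93% of all genes were higher and 7.5% lower. The median was -0.52 against -0.05 over all genes, and in 20 members all libraries with the drug lay below all without it, as in 10.4% of all genes. Hist1h2ab (3.34, 3.19 and 4.22 CPM on diet, 1.99, 1.74 and 1.01 CPM with rosiglitazone) had the smallest p of them, adjusted p = 0.0691. The H3 sum, 69.5, 72.6 and 99.1 CPM on diet and 56.0, 56.7 and 60.8 CPM with the drug, was lower without overlap but not called (log2 -0.47, adjusted p = 0.459). Grouping the WT libraries by titles turns this direction around by construction, to a median of 0.52.

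The interaction tests whether the response to rosiglitazone differed between genotypes. It called Hist1h2ap alone (log2 11.41 ± 0.64, edgeR adjusted p = 0.000659), where 0.104% of all genes were called, a fitted value that depends on the 0 reads of KO on diet. For the sum of its copies the interaction was 2.53 ± 0.48 (log2, adjusted p = 0.0986). Of the 64 members 59 had a positive interaction, with a median of 1.98 against 0.0 over all genes, and 42 had an unadjusted p under 0.05 against 4.9% of all genes in that direction. DESeq2 called 20 members, where it called 1.46% of all genes in that direction. Class sums gave 0.72 for H1, 1.17 for H2A, 1.26 for H2B, 2.04 ± 0.46 for H3 (adjusted p = 0.157) and 1.37 for H4. None was called by edgeR, and DESeq2 called 3 (H2A, H3 and H4). Leaving out KO on diet replicate 2 raised the count to 20 members, and grouping WT by titles lowered the median to 0.82.

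**Figure D4:**
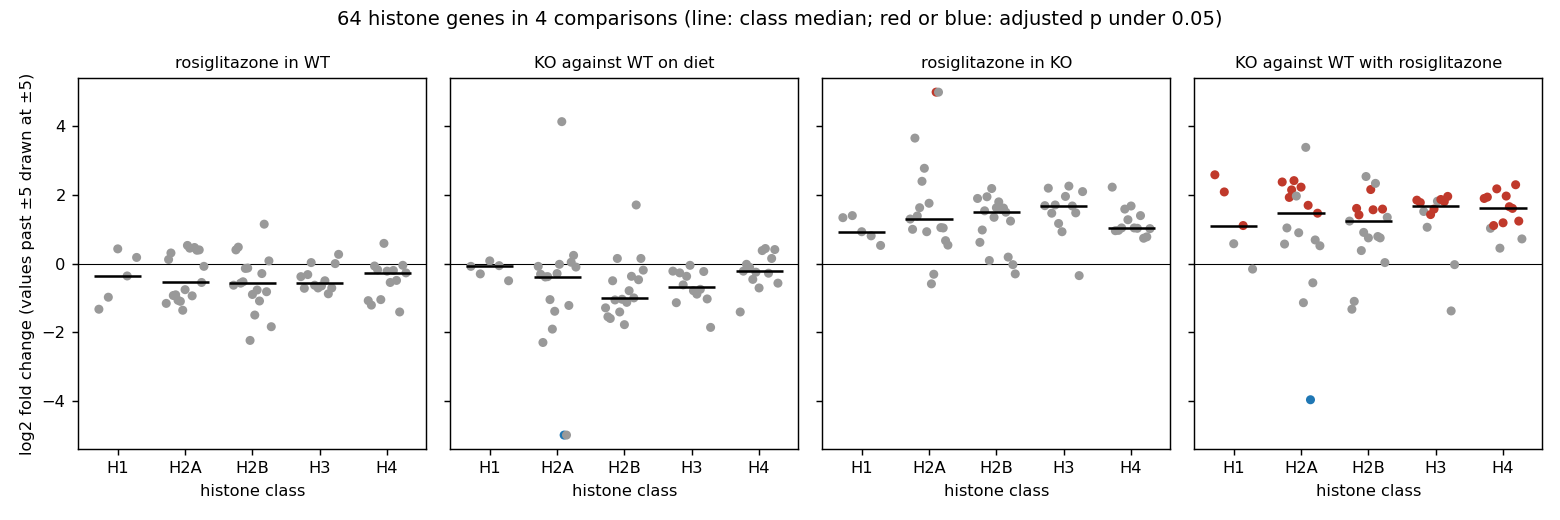
Log2 fold change of the 64 members by class in each of the 4 comparisons between groups; a point is 1 gene, a line is the class median, red or blue points passed the test, and values past ±5 are drawn at ±5. The medians over all members are -0.52 and 1.34 for rosiglitazone in WT and in KO, and -0.38 and 1.45 for KO against WT on diet and with rosiglitazone.

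Genes that make or process histone mRNA or chaperone the proteins were set beside all genes tested. Of those, 15.0% were called for KO against WT with rosiglitazone, 5.47% higher and 9.5% lower, with a median log2 difference of 0.05. Of 19 tested genes of histone mRNA transcription and processing, 0 rose and 1 fell for KO against WT with rosiglitazone, with a median log2 difference of 0.02. The gene that fell was Cdc73, a subunit of the PAF1 elongation complex (log2 -0.63 ± 0.15, edgeR adjusted p = 0.0233). Slbp, which binds the stem-loop, was at 23.3, 20.5 and 21.1 CPM in WT and 25.1, 25.9 and 24.9 CPM in KO (log2 0.22 ± 0.17, adjusted p = 0.405), and Npat, the histone locus coactivator, differed by -0.20 ± 0.18 (adjusted p = 0.469). Of the 11 histone genes listed as replication-independent, with symbols unlike the members' and mRNA ends not examined, 3 rose, with a median of 0.13. These were Cenpa (1.34), the centromeric H3; H2afx (1.19), the H2A of DNA damage signalling; and H3f3b (0.74), an H3.3 gene. H2afz, the gene for H2A.Z, differed by 0.42 (adjusted p = 0.154) and H1f0, the H1 of resting cells, by -0.35 (adjusted p = 0.516). Among 17 histone chaperones Npm1 rose (0.88) and Nap1l4 fell (-0.93). In the other comparisons the only call in these 3 lists was Nap1l4, higher with rosiglitazone in WT (0.88, adjusted p = 0.0438).

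Genes of the cell cycle and DNA replication moved with the histone genes. Of 38 tested, 20 rose and 0 fell for KO against WT with rosiglitazone, with a median log2 difference of 0.95, and 0 were called in the other 4 contrasts. Over all genes tested, 5.47% were called higher and 9.5% lower for KO against WT with rosiglitazone, with a median of 0.05. Mki67, the proliferation marker, was at 38.9, 40.6 and 54.9 CPM in WT on diet, 31.7, 33.6 and 23.9 in WT with rosiglitazone, 24.1 and 33.0 in KO on diet, and 44.9, 73.2 and 70.0 in KO with rosiglitazone (log2 1.07 ± 0.24 for KO against WT with rosiglitazone, edgeR adjusted p = 0.017). Pcna, the replication clamp, rose by 0.96 ± 0.15 (adjusted p = 0.0047), and Mcm6, a helicase subunit, by 1.35 ± 0.20 (adjusted p = 0.0035). Their summed level was 486 to 639 CPM in WT on diet, 440 to 460 in WT with rosiglitazone, 462 and 578 in KO on diet, and 698 to 824 in KO with rosiglitazone. Other RNAs without a poly(A) tail also moved: 4 of 9 tested rose (Rmrp, Rn7s6, Rnu12 and Rpph1), with a median of 0.96 and a summed level of 115000 to 133000 CPM in WT and 146000 to 298000 CPM in KO with rosiglitazone. The part of either in the histone difference was not tested, and the labels do not say whether poly(A) RNA was selected.

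Markers of other cells differed between the same groups, where 5.47% of all genes were called higher in KO with rosiglitazone and 9.5% lower. For KO against WT with rosiglitazone 9 of 10 macrophage markers rose, their sum going from 590 to 728 CPM in WT to 2570 to 3180 CPM in KO, and 9 of 10 mature adipocyte markers fell, from 22600 to 26300 CPM to 4300 to 4740 CPM. None of 12 B cell and 12 T and NK cell markers was called, but their sums lay higher in KO (B cells 211 to 583 CPM in WT and 893 to 1100 CPM in KO, T and NK cells 16.5 to 124 CPM and 295 to 322 CPM). Of 7 germinal centre B cell markers 1 rose and 2 fell, and their sum was 90.7 to 139 CPM in WT and 72.4 to 85.9 CPM in KO; the median log2 difference of the 7 was 1.72, so the median and the sum differ in direction. In KO on diet the library with the lower histone sum, 244 CPM, had 228 CPM of B cell and 23.9 CPM of T and NK cell markers. The other, at 421 CPM, had 1510 and 521 CPM. The WT libraries did not keep this order. On diet, histone sums of 498, 417 and 497 CPM stood beside 464, 1470 and 1250 CPM of B cell markers. T and NK cell markers were there at 22.3, 316 and 250 CPM. With rosiglitazone, WT histone sums of 410, 448 and 463 CPM stood beside 583, 211 and 424 CPM of B cell markers. T and NK cell markers were there at 98.9, 16.5 and 124 CPM. Of the adipocyte progenitor markers 2 of 8 rose, of the endothelial markers 3 of 6 fell, and 0 of 10 skeletal muscle markers were called. The muscle sum was 57.3, 2750 and 5460 CPM in WT with rosiglitazone and 19.4, 12100 and 42.0 CPM in KO with rosiglitazone, so that single libraries stood apart. Testis germ cell markers summed to under 1 CPM in each library. The part of any of these cells in the histone levels was not tested.

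**Figure D5:**
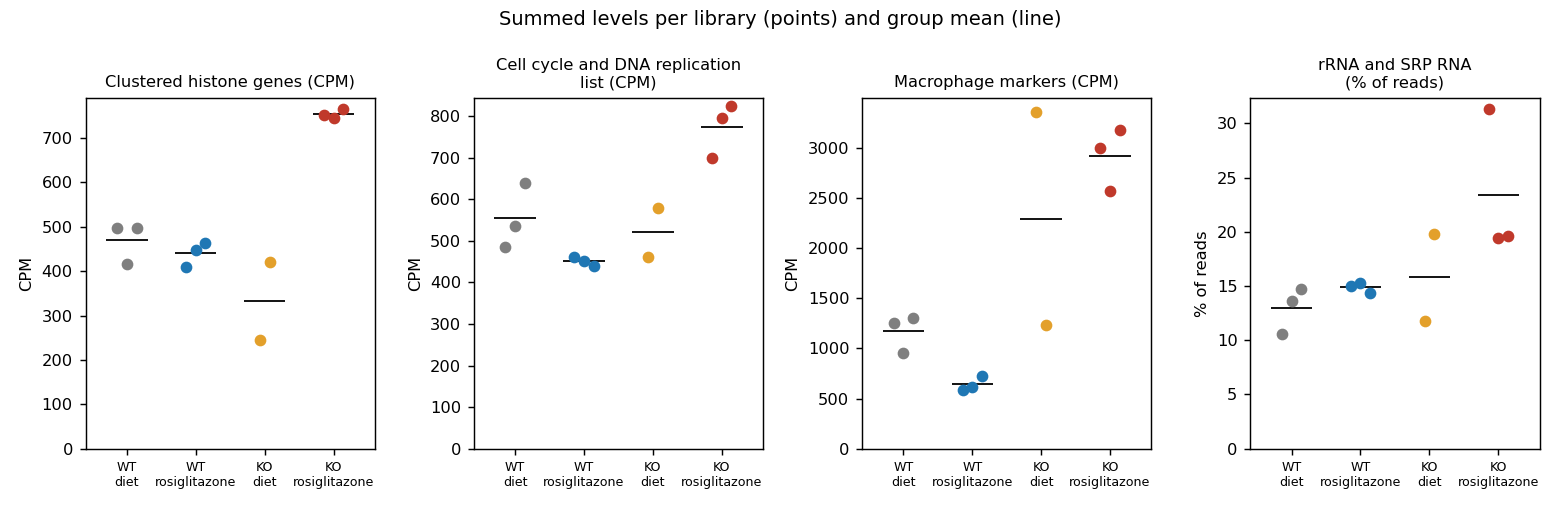
Summed CPM of the histone genes, of the cell cycle and DNA replication genes and of the macrophage markers, and the percent of reads in ribosomal (rRNA) and signal recognition particle (SRP) RNA genes, by group; a point is 1 library and a line the group mean. The KO libraries with rosiglitazone have the highest histone sums (745 to 764 CPM) and cell cycle sums (698 to 824 CPM), while the macrophage sum is highest in 1 KO library on diet (3360 CPM).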

How the data were processed

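Trizol RNA of inguinal fat went into Nextera XT libraries; the labels' protocols name neither strand nor poly(A) selection. Salmon and edgeR, and the builds mm10 and GRCm38, are named in the submitters' processing notes; their versions, and which annotation release was used, were not given in the sources used here. In every deposited table there is, per the file headers, an estimated count and a TPM value for every transcript of 1 library. Estimated counts deposited by the authors divide reads shared by near-identical transcripts according to Salmon's model, so single histone copies are uncertain; class, protein and copy sums were therefore added.

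The 132288 transcripts were matched to GENCODE M21, 131892 (99.7%) without the version, and summed to 52282 genes, then rounded. Groups came from the genotype and treatment characteristics. The test was edgeR 4.0.16's quasi-likelihood test (robust, TMM scaling, filterByExpr by group) in 1 model over 11 libraries, with Benjamini-Hochberg adjustment over the 26960 genes kept and a threshold of 0.05. The same fit was run with the members replaced by 5 class sums, by same-protein sums, and by copy sums. Standard errors accompany log2 fold changes. CPM values are counts over the TMM-scaled library total.

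Members, lists and the rule for naming genes (every called member, the 3 per class with the highest mean TPM, the 2 with the smallest p per contrast, Hist1h2ap, and fixed partner genes) were chosen with earlier results of these data known. Other genes given as examples were chosen after their values were seen. On simulated data of 26960 genes with 200 changed, the fit recovered 30.8% of 4-fold and 2.75% of 2-fold changes for KO against WT with rosiglitazone, and 39.8% and 0.0% for rosiglitazone in KO. In the data 4037 genes were called for KO against WT with rosiglitazone, many more than were changed in the simulation. Recovery in the data may therefore differ from these shares. Replicates of a group differed by 26.5 to 139 in chi-square per degree of freedom, so each counted as 1 sample. Alternatives were DESeq2 1.42.0, limma-voom (limma 3.58.1), RLE scaling, other filters, a replicate block, WT grouped by titles, only the groups compared, no ribosomal or signal recognition particle RNA genes, and leaving out each library.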

Additional observations from a re-analysis of the deposited data

Results flagged for a closer look

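The response of Hist1h2ap to rosiglitazone differed between genotypes by the interaction test (edgeR quasi-likelihood, adjusted p = 0.000659). Both KO libraries on diet had 0 reads of it, and the 3 KO libraries with rosiglitazone were at 6.61, 7.83 and 11 CPM; WT libraries were at 4.77, 4.52 and 5.68 CPM on diet and 2.24, 2.96 and 2.6 CPM with rosiglitazone. For its sum with Hist1h2an and Hist1h2ao, which encode the same protein, the edgeR adjusted p was 0.0986.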

How the results depend on the processing

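The count of 33 members called for KO against WT with rosiglitazone was within 1.5 times under RLE scaling, DESeq2, limma-voom, other filters, only the groups compared and no ribosomal or signal recognition particle RNA genes. It was 2 with WT grouped by titles, 12 with same-protein members summed, and 14 to 40 without each library in turn. For rosiglitazone in KO (1 called) it was 22 by DESeq2, 0 by limma-voom, 0 with only the groups compared, 0 with same-protein members summed and 1 to 10 without each library. For KO against WT on diet (1) it was 5 by DESeq2, 0 by limma-voom, 5 by titles, 0 with only the groups compared, 0 with same-protein sums and 1 to 3 without each library. For the interaction (1) it was 20 by DESeq2, 3 with no filter, 2 without ribosomal and signal recognition particle RNA genes, 0 with same-protein sums and 1 to 20 without each library. For rosiglitazone in WT (0) it was 4 by DESeq2 and 0 to 4 without each library. Among the fits without 1 library, the highest counts for KO on diet against WT, for the drug in KO and for the interaction came without KO on diet replicate 2. That fit holds 1 library of the group, so its counts, and those of class sums below, rest on no spread within it. The causes were not tested.

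Class sums called for KO against WT with rosiglitazone (2) were 0 by titles, 4 with only the groups compared and 0 to 3 without each library. For rosiglitazone in KO (0) they were 5 by DESeq2 and 0 to 3 without each library. On diet (0) they were 1 by DESeq2, 1 by titles and 0 to 1 without each library, and for the interaction (0) 3 by DESeq2 and 0 to 3 without each library.

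Log2 fold changes of class sums that passed the test only in another setting were as follows. For KO against WT with rosiglitazone, H1 was 0.60 by RLE scaling, 0.60 by DESeq2, 0.61 with a minimum of 1 CPM in 3 libraries, 0.62 with only the groups compared, 0.66 without ribosomal and signal recognition particle RNA genes, and 0.47 to 0.72 without each library; H2A was 0.37 with only the groups compared. For rosiglitazone in KO, DESeq2 gave 0.89 for H1, 1.22 for H2A, 1.19 for H2B, 1.59 for H3 and 1.13 for H4, and leaving out libraries gave 0.94 to 1.54 for H2A, 1.03 to 2.44 for H3 and 0.69 to 1.73 for H4. On diet, H2A was -0.84 by DESeq2 and -0.86 by titles, and H3 ran from -1.48 to -0.07 without each library. For the interaction, DESeq2 gave 1.19 for H2A, 2.07 for H3 and 1.39 for H4, and leaving out libraries gave 0.91 to 1.5 for H2A, 1.51 to 2.91 for H3 and 0.94 to 1.99 for H4.

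The calls of H3 and H4 for KO against WT with rosiglitazone were lost by titles (0.96 and 1.04), and their values without each library were 1.39 to 1.52 and 1.14 to 1.46. Grouping by titles turned every sum for rosiglitazone in WT, to -0.16 for H1, -0.04 for H2A, 0.09 for H2B, 0.47 for H3 and 0.26 for H4, and H4 on diet to 0.18. Other changes of sign were all in values not called: H2A for rosiglitazone in WT (-0.01 with only the groups compared, -0.08 to 0.18 without each library), H2B there (-0.21 to 0.11), H1 on diet (-0.40 to 0.11) and H4 on diet (-0.69 to 0.35).

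Replicate numbers are shared by the groups. Deviations from the group means had correlations of -0.42 to 0.61 between same-numbered libraries and -0.61 to 0.42 between different numbers. The 2 KO libraries on diet deviate in opposite directions by construction, so the ends of these ranges mirror each other. The ranges therefore cannot decide whether same-numbered libraries deviate together. With the replicate number as a block, 30 members were called for KO against WT with rosiglitazone and 2 class sums. No interaction could be fitted with only the groups compared. For the called members named, 573 values under alternatives kept direction and call, 150 kept the direction without the call, and 0 turned; members not called were not counted. Depth limits the lowest members: of those tested, Hist1h2ad, Hist1h2an, Hist1h2bp, Hist1h2br, Hist2h2ab and Hist3h2ba had libraries with under 1 CPM in every group.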
